A study of Mus musculus with 10 samples.

Results

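The 10 libraries of round spermatid RNA differed in the share of their read counts that lay on transposable elements (TE), and gene rows were compared between those with a high and those with a low TE share. The classes were chosen by a measured value, the percent of all counts of a library on TE rows. A library was placed in the low class when TE rows held under 7% of all its counts, and in the high class otherwise. This put 6 of the 10 libraries in the high class and 4 in the low class. Each temperature of the study had 3 high and 2 low libraries. The classes are no treatment, and no test of the TE share was made. A p-value for high against low measures how closely a gene went with the classes, set against the spread between mice within a class and temperature.

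The study asked what a brief heating of the testis does to small and transposable element RNA in germ cells, and used adult male CD1 mice, an outbred stock, kept under isoflurane. Their testes were in contact with water held at 33 °C in 5 control mice or at 42 °C in 5 heated mice, for 30 minutes in each case. The animals recovered from the anaesthesia and were killed straight away, and round spermatids were then isolated. Total RNA, extracted with a column kit, was freed of ribosomal RNA by the Ribo-Zero protocol and made into stranded libraries, 1 per mouse. The labels name no genotype, exact age, way of isolating the cells or batch that differs between the mice. The deposited table holds raw counts for 55401 gene rows and 1146 TE rows, each TE row being a subfamily summed over its genomic copies.

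Transposable elements are repeats that once could copy themselves, and most copies in the mouse genome lie between genes or inside introns. Their RNA can come from their own promoters or as part of a longer transcript, such as an unspliced messenger precursor that still holds its introns. In male germ cells piRNAs, small RNAs bound to PIWI proteins, and repressors on chromatin hold transposable elements down. Round spermatids are haploid cells that follow meiosis and still transcribe widely before their chromatin is packed with protamines.

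The low class had TE shares of 4.62% and 4.86% at 33 °C (replicates 2 and 5) and 5.98% and 5.79% at 42 °C (replicates 1 and 3). The high class had 7.61%, 9.07% and 8.02% at 33 °C (replicates 1, 3 and 4) and 16.2%, 7.30% and 7.30% at 42 °C (replicates 2, 4 and 5). The library just under the threshold was thus at 5.98% and the one just above it at 7.30%. Replicate 2 at 42 °C stood far above the others, so values are also given without it where it moved them most. What the TE counts were made of varied less than their amount. LINE elements held 25.3% to 32.0% of the TE counts of a library, SINE elements 32.4% to 37.5% and LTR elements 26.4% to 28.0%.

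**Figure D1:**
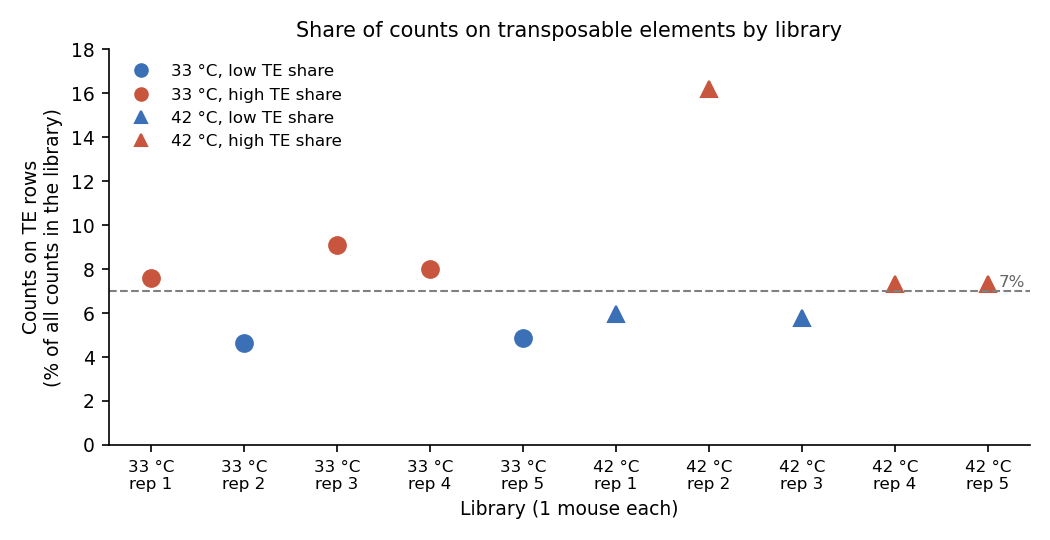
Percent of all counts that lay on TE rows in each of the 10 libraries, with 33 °C as circles, 42 °C as triangles and the dashed line at the 7% threshold. Each temperature holds 2 libraries under the line and 3 above it, and 42 °C replicate 2 lies at 16.2%.

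The classes also differed in depth. The 4 low libraries held 95232527 to 117723075 counts and the 6 high ones 60623568 to 94308771, with no overlap. When the gene counts of all libraries were thinned at random to one common total, 21379 to 22352 genes had 10 or more counts in the low libraries and 22539 to 25068 in the high ones. More genes were thus detected in each high library than in any low one at equal depth. All 38 listed markers of round spermatids passed the filter on low counts, with a summed level of 7944 to 11650 CPM per library, CPM being counts scaled to a common library size. The closest pair of libraries within a temperature, 42 °C replicates 1 and 3, differed beyond sampling noise, with chi-square at 10.4 per degree of freedom. On that scale every other pair within a temperature was further apart, from 38.4 to 209. These 2 libraries form the whole low class at 42 °C. The spread of that class is thus the one between unusually similar libraries. Whether they are as independent as the other libraries was not tested.

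Few single genes went with the classes closely enough to pass the test. Of 24888 gene rows tested, edgeR's quasi-likelihood test with temperature as a covariate called 0 higher and 2 lower in the high libraries at a Benjamini-Hochberg adjusted p of 0.05, which is 0% and 0.00804% of rows. Before adjustment, 3330 rows (13.4%) were higher at a p under 0.05 and 1601 (6.43%) were lower, which is termed nominally higher or lower from here on. Other tools called more rows: DESeq2 936 higher (3.76%) and 181 lower (0.727%), and limma voom with a quality weight for each library 2166 higher (8.7%) and 985 lower (3.96%). Rows whose 6 high libraries all lay above or all below the 4 low ones in CPM numbered 855 higher (3.44%) and 609 lower (2.45%). The counts given below for each list are to be read against these shares of all rows. With library totals in place of TMM scaling the median log2 difference of all rows moved from 0.03 to 0.16. That scaling gave 4539 nominally higher and 321 nominally lower rows, so a difference given here is relative to the bulk of genes. With 1 library dropped, edgeR called 0 to 10 genes higher and 2 to 13 lower, the most higher ones with 33 °C replicate 5 dropped (10 and 6 lower) and the most lower ones with 42 °C replicate 4 dropped (3 and 13 lower). Dropping 33 °C replicate 2 gave 4 and 9, 42 °C replicate 5 gave 2 and 2, and 33 °C replicate 1 gave 0 and 4.

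The 2 genes called by edgeR were Vcp-rs and Npr2, both lower in the libraries with a high TE share. Vcp-rs is a processed pseudogene, an intronless copy of Vcp, the gene of an ATPase that pulls proteins out of complexes (chromosome X). It had 64.3 and 53.8 CPM in the low libraries at 33 °C and 27.1 and 27.5 CPM in those at 42 °C. In the 6 high libraries it had 2.72 to 3.52 CPM with a median of 2.96. The groups did not overlap, and the log2 difference was -3.76 (SE 0.19, edgeR adjusted p = 1.075e-05). Its parent Vcp, at a mean of 177.7 CPM, had a log2 difference of 0.25 (SE 0.12, edgeR adjusted p = 0.2832). Reads from near-identical copies may be divided between parent and pseudogene, and the way this was done is not given in the sources used here.

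Npr2 encodes the receptor of C-type natriuretic peptide, a membrane guanylyl cyclase (chromosome 4, 43631935 to 43651244, GRCm38). It had 7.13 and 9.15 CPM in the low libraries at 33 °C and 5.07 and 5.02 CPM at 42 °C. The high libraries had 0.486 to 1.71 CPM with a median of 0.951, again with no overlap. The log2 difference was -2.70 (SE 0.24, edgeR adjusted p = 0.002145). Vcp-rs passed in each of the 24 alternative settings and Npr2 in 21 of them. Npr2 missed the threshold with the TE to gene ratio as a continuous term in place of the classes, both with all libraries and without 42 °C replicate 2. Both genes were called at 33 °C alone and at 42 °C alone, where the libraries are separate: Vcp-rs with -4.24 and -3.23, and Npr2 with -2.74 and -2.67.

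Without 42 °C replicate 2, edgeR called 3 genes higher and 4 lower. The 3 were Nmu, Rasgrp3 and 1700030N03Rik, and the 4 were Vcp-rs, Npr2, Igfbp7 and Rn7s2, the 5 new ones being named here after their values were seen. Nmu, the gene of the peptide neuromedin U, had 0, 0, 0 and 2 counts in the low libraries and 121 to 165 counts in 5 of the high ones. In 42 °C replicate 2 it had 0 counts, as in the low class. Rasgrp3, an activator of Ras proteins, had 0.292 to 0.568 CPM in the low libraries, 1.77 to 2.57 CPM in the same 5 high libraries and 0.462 CPM in 42 °C replicate 2. For these genes, and for Igfbp7, a secreted binding protein (17.6 to 23.8 CPM in the low libraries, 8.45 to 11.6 CPM in 5 high ones and 19.1 CPM in that library), the library of highest TE share sat with or near the low class. The long noncoding RNA 1700030N03Rik did not show this. It had 16.2 to 21.8 CPM in the low class and 37.0 to 63.9 CPM in the high class, highest in 42 °C replicate 2, with a log2 difference of 1.20 (SE 0.15, edgeR adjusted p = 0.0554 with all libraries).

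**Figure D2:**
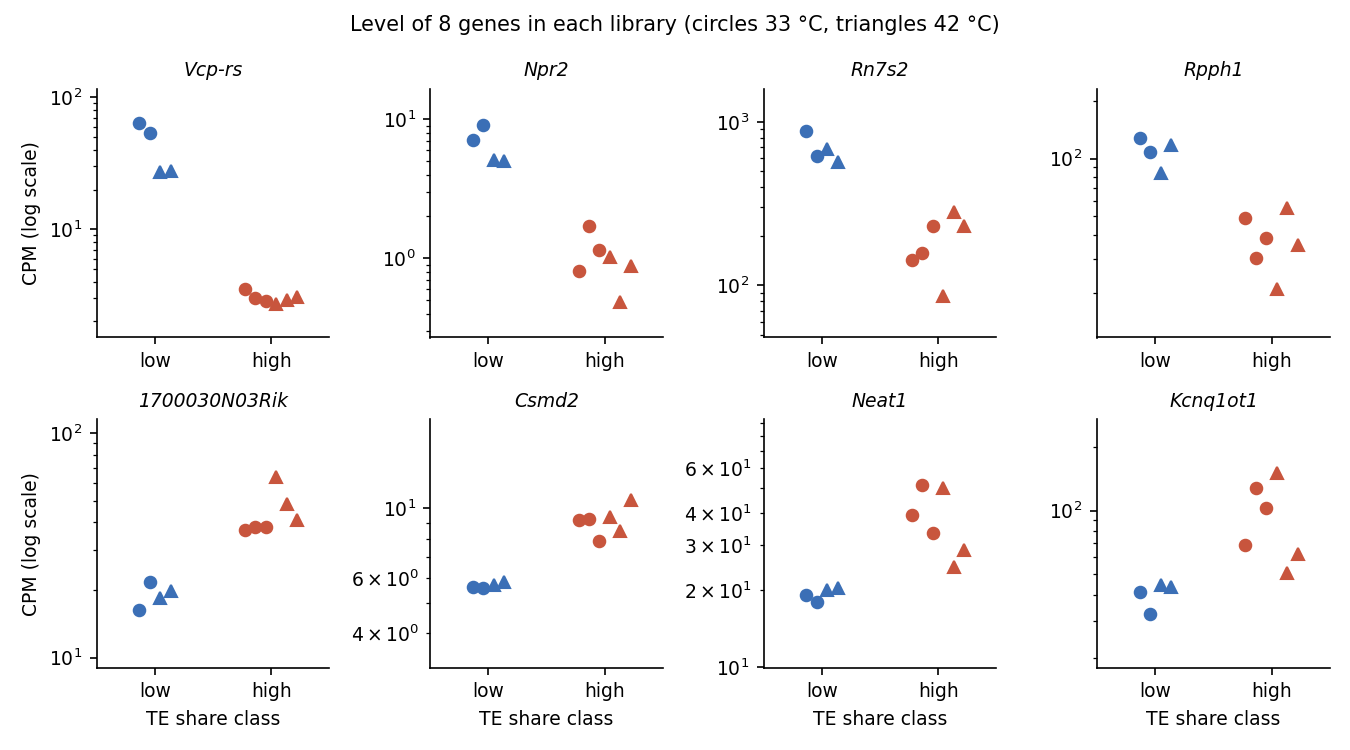
CPM of 8 genes in each library on a log axis, low TE share at left in blue and high at right in red, with circles for 33 °C and triangles for 42 °C. In every panel the 4 low libraries and the 6 high ones do not overlap, and the gap is widest for Vcp-rs, from 3.52 to 27.1 CPM.

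The clearest shared pattern among gene rows was in transcripts annotated inside introns. GENCODE uses the label TEC for loci of uncertain standing that await experimental support, and many of these lie wholly within an intron of a protein-coding gene on its strand. There were 554 such TEC rows among those tested, and their summed level was 339.7 and 329.6 CPM in the low libraries at 33 °C and 398.3 and 384.7 CPM in those at 42 °C. The high libraries had 591.9, 667.2 and 611.7 CPM at 33 °C and 1331, 502.0 and 506.5 CPM at 42 °C. No high library overlapped a low one, and 42 °C replicate 2 was highest in this measure as in the TE share. The repeat content of these TEC rows could not be computed. Whether they share reads with the TE rows that set the classes was not tested.

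The median log2 difference of the 554 rows was 1.17, against 0.03 for all rows tested, and 539 of them had a positive value. It was 0.87 without 42 °C replicate 2, 1.17 at 33 °C and 1.16 at 42 °C. At an adjusted p of 0.05 edgeR called 0 of these rows, while 434 were nominally higher and 1 lower (unadjusted). DESeq2 called 236 higher and 0 lower, and limma voom 217 higher and 2 lower. In 156 of the 554 the 6 high libraries all lay above the 4 low ones, where 3.44% of all rows did so. Gene rows that contain the introns gave no such shift. The 392 host genes of the rows that lie in a single tested host had a median of -0.03, and 518 of 535 intronic TEC rows had a larger log2 difference than their host. Summed over each library, the intronic TEC rows stood at 0.788% to 1.01% of the level of their hosts in the low class and at 1.26% to 3.88% in the high class (1.91% at most without 42 °C replicate 2).

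The filter on low counts asked for a minimum level in 5 libraries, so a row seen in the 6 high libraries alone could pass and a row seen in the 4 low ones alone could not. With no filter, 1342 intronic TEC rows had counts, their median log2 difference was 1.14, and 1226 were positive. The 788 of them that had not been tested summed to 12.1 to 16.6 CPM in the low libraries and 21.1 to 69.0 CPM in the high ones. Among the 174 tested rows with a mean of at least 1 CPM the median was 1.12, and 165 were positive.

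The difference varied with the position and strand of TEC rows. The 361 TEC rows that overlap no protein-coding gene had a median of 0.55, the 39 that lie inside such a gene and touch its exons 0.40, and the 171 on the opposite strand of one 0.19. Under TMM scaling the summed levels of those outside coding genes were 733.7 to 760.7 CPM (low) and 744.1 to 1053 CPM (high). Those on the opposite strand had 728.3 to 811.6 CPM (low) and 720.1 to 888.4 CPM (high), with overlap in each case. With library totals, 44 of 45 pairs of libraries ran in the order of the TE share for rows outside coding genes (36 with TMM). The exception lay within the high class, so the classes then did not overlap. For the opposite strand 36 pairs did so (24 with TMM), and for intronic TEC rows 43 with either scaling. By summed exon length, TEC rows had a median of 0.38 under 1000 bases, 0.76 from 1000 to 2000, 0.99 from 2000 to 4000 and 1.16 above that. The comparison with strand rests on the annotation, since the strand setting of the counting is not given in the sources used here.

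Rows of the class sense_intronic, which GENCODE defines by their place in an intron on the sense strand, showed the same direction. The 158 such rows that touched no exon had a median log2 difference of 0.93 (0.70 without 42 °C replicate 2), and 138 were positive, while 136 of 154 lay above their host. Nominally 96 were higher and 2 lower, and DESeq2 called 44 higher and 0 lower. Among the 49 with a mean of at least 1 CPM the median was smaller, at 0.53, and 34 were positive. With no filter, 292 rows had counts, with a median of 0.89 and 248 positive. Their summed level overlapped between the classes, at 181.6 to 222.2 CPM (low) and 207.8 to 382.8 CPM (high). A few abundant rows held much of that sum. 4933425D22Rik in Tex26 had a mean of 41.7 CPM and a log2 difference of -0.09 (SE 0.17), and the imprinted Peg13 in Trappc9 had 21.5 CPM and -0.15 (SE 0.18).

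Of the 12 most abundant intronic rows with a tested host, 6 TEC and 6 sense_intronic, the following 2 had the largest log2 differences. Gm45223, a TEC row in an intron of Picalm, the gene of a clathrin assembly protein, had 4.23, 4.79, 4.01 and 3.75 CPM in the low libraries and 4.92 to 13.3 CPM with a median of 6.79 in the high ones (log2 0.87, SE 0.27, edgeR adjusted p = 0.1651). Picalm itself had 204.4 to 223.9 CPM in the low libraries and 172.5 to 249.8 CPM in the high ones (log2 -0.11, SE 0.10). Gm47798, a sense_intronic row in Ngly1, the gene of a glycan-removing enzyme, had 3.62 to 6.65 CPM in the low class and 7.43 to 21.1 CPM in the high class (log2 0.97, SE 0.25, edgeR adjusted p = 0.1492), and Ngly1 had a log2 difference of -0.21 (SE 0.12). Neither host passed the test. The most abundant intronic TEC row, Gm6653 in Parpbp, had 11.5 to 15.6 CPM (low) and 9.52 to 22.1 CPM (high) and a log2 difference of 0.14 (SE 0.21), and the other abundant rows ranged down to -0.50 (SE 0.20) for Gm49618 in Cldn14. The TEC row 4930412F12Rik in Galnt7 had -0.04, Gm29093 in Abhd17a had 0.03, and 4930594C11Rik had -0.03 where its host Mgat4a had 0.64 (SE 0.19).

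**Figure D3:**
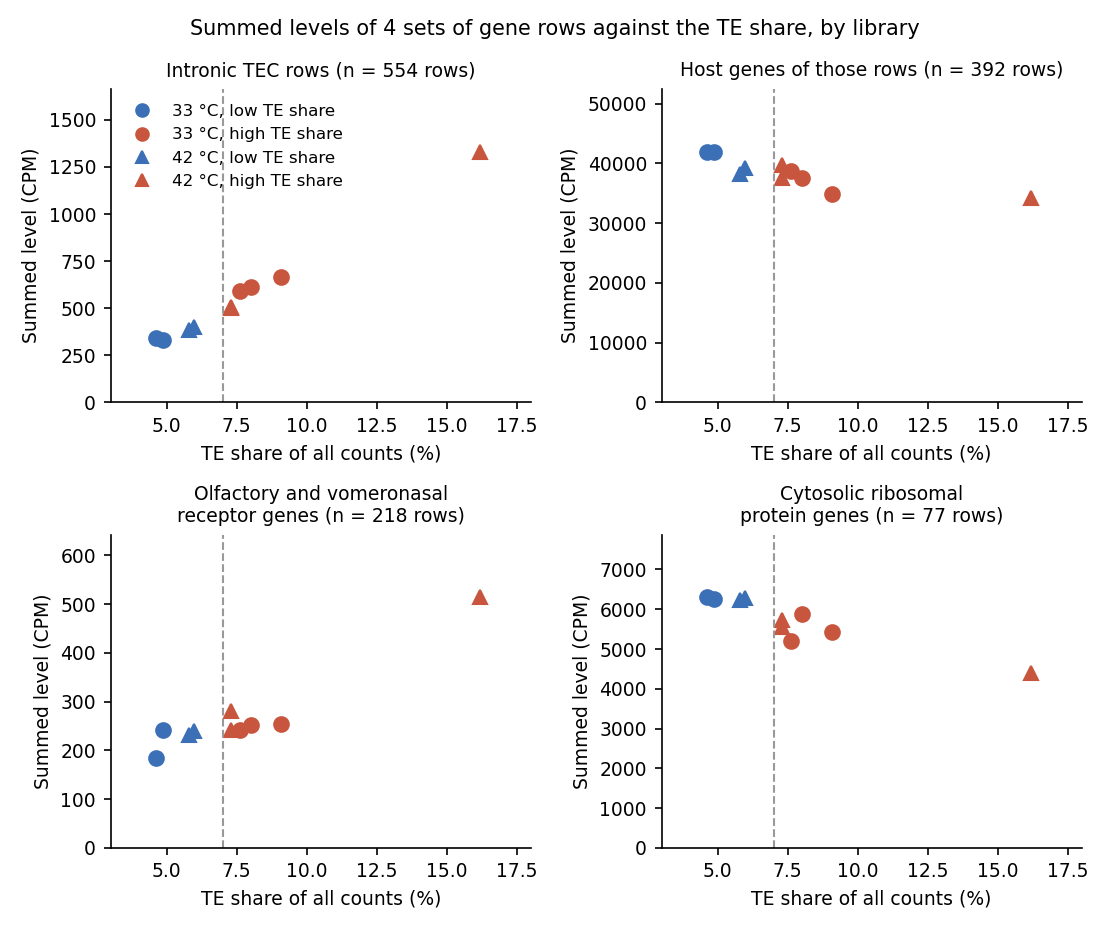
Summed CPM under TMM scaling of 4 sets of gene rows in each library (vertical axes, from 0) against the TE share of that library (horizontal axes, with the 7% threshold dashed). Intronic TEC rows run from 329.6 to 1331 CPM from the lowest to the highest library, their 392 hosts lie between 34270 and 41980 CPM, and the 77 ribosomal protein genes lie at 6229 CPM or more in the low libraries and at 5893 CPM or less in the high ones.

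Long noncoding RNAs known to stay in the nucleus were mostly on the higher side. Of 16 tested, 14 had a positive log2 difference, with a median of 0.64 (0.57 without 42 °C replicate 2), 9 were nominally higher and 0 lower, and edgeR called 0 after adjustment (DESeq2 4 higher, limma voom 6 higher). Of all rows, 13.4% were nominally higher, and DESeq2 called 3.76% and limma voom 8.7% higher. All 2414 tested lincRNA rows leaned the same way, with a median of 0.15 and 62.8% positive, and rows of any kind under 1 CPM had 0.33 and 74.31%. The part of nuclear retention in this was not tested. Neat1, the scaffold of paraspeckles, had 19.2, 17.9, 19.99 and 20.4 CPM in the low libraries and 24.7 to 51.5 CPM with a median of 36.3 in the high ones (log2 0.96, SE 0.21, edgeR adjusted p = 0.1425). Kcnq1ot1, a long imprinted RNA that runs antisense to Kcnq1, had 41.0, 32.4, 44.2 and 43.5 CPM against 50.5 to 150.2 CPM with a median of 85.8 (log2 1.22, SE 0.30, edgeR adjusted p = 0.1459). Neither RNA overlapped between the classes. Malat1, an RNA of nuclear speckles, did: it had 298.5 to 433.6 CPM in the low class and 378.1 to 581.6 CPM in the high class (log2 0.45, SE 0.15, edgeR adjusted p = 0.1853).

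Olfactory and vomeronasal receptor genes serve the sense of smell, and 218 of 1452 passed the filter. Of these, 178 had a positive log2 difference, the median was 0.59 (0.40 without 42 °C replicate 2, 0.48 at 33 °C and 0.73 at 42 °C), and 82 were nominally higher and 3 lower. After adjustment edgeR called 0, DESeq2 37 higher and 1 lower, and limma voom 36 higher and 2 lower. Of all rows, 13.4% were nominally higher and 6.43% lower, DESeq2 called 3.76% and 0.727%, and limma voom 8.7% and 3.96%. The summed level of the receptors was 184.9 to 241.4 CPM in the low class, 241.3 to 279.7 CPM in 5 high libraries and 514.1 CPM in 42 °C replicate 2. The classes thus met at their edges under TMM scaling. With library totals 43 of 45 pairs of libraries ran in the order of the TE share (38 with TMM). Both exceptions lay within the high class, so the classes then did not overlap. Protein-coding rows with a mean under 1 CPM, of any kind, had a median of 0.28 with 74.25% positive. The filter could pass a receptor seen in the high libraries alone and not one seen in the low ones alone. With no filter, 997 receptors had counts, their median was 0.78 and 742 were positive. Among the 63 tested receptors with a mean of at least 1 CPM the median was 0.38, with 48 positive. Olfr652, for example, had 0.462, 0.264, 0.281 and 0.213 CPM in the low libraries and 0.399 to 1.79 CPM with a median of 0.894 in the high ones (log2 1.68, SE 0.33, edgeR adjusted p = 0.1327).

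The direction varied with the level of a gene more widely. The median log2 difference was 0.33 for 8389 rows with a mean under 1 CPM, 0.07 for 7797 rows from 1 to 10 CPM, -0.09 for 6252 rows from 10 to 100 CPM and -0.18 for 2450 rows above 100 CPM. Of the last group 12.2% were positive. Protein-coding rows alone gave 0.28, 0.06, -0.09 and -0.18. The rows under 1 CPM are those on which the filter bears, and it favours rows seen in the high libraries. With no filter the 28854 rows under 1 CPM that had counts gave a median of 0.45, and the 8121 protein-coding ones 0.32, where all rows with counts gave 0.13. The order was the same at 33 °C, at 42 °C and without 42 °C replicate 2, and the zero point within it depends on the scaling.

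**Figure D4:**
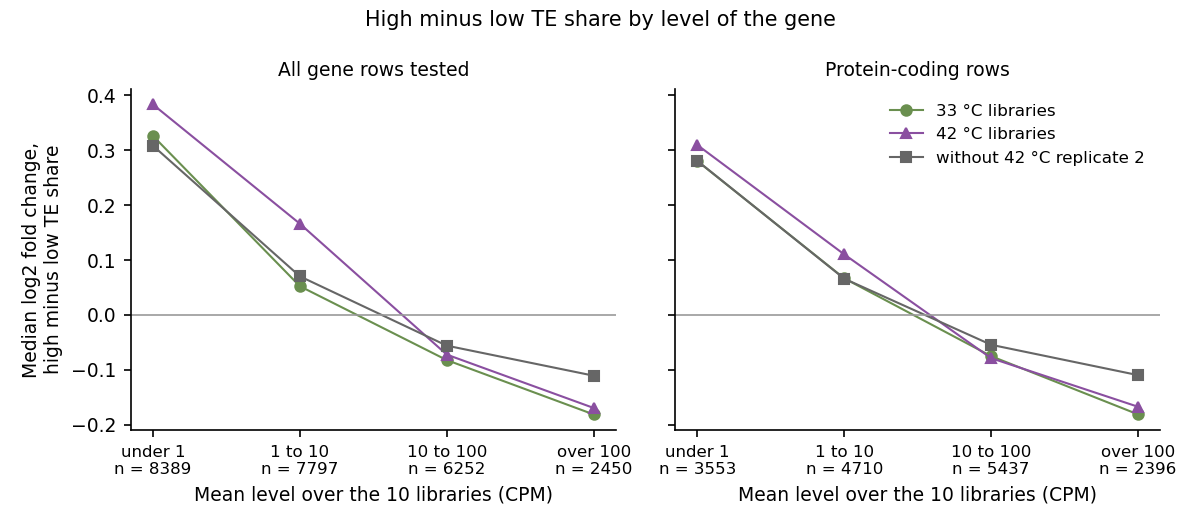
Median log2 difference between high and low TE share in 4 ranges of mean CPM, for all rows (left) and protein-coding rows (right), at 33 °C, at 42 °C and without 42 °C replicate 2. Each line runs downward from low to high levels, from 0.31 under 1 CPM to -0.11 above 100 CPM for all rows without 42 °C replicate 2.

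Abundant housekeeping messengers leaned to the lower side. Of 77 cytosolic ribosomal protein genes, 7 had a positive log2 difference. The median was -0.23 (-0.15 without 42 °C replicate 2), 36 were nominally lower and 0 higher, and edgeR called 0 after adjustment (DESeq2 2 lower, limma voom 22 lower). Their summed level under TMM scaling was 6304, 6265, 6291 and 6229 CPM in the low libraries. In the high ones it was 4393 to 5893 CPM with a median of 5499, with no overlap. Of 45 pairs of libraries, 38 had the lower sum in the library of higher TE share. With library totals 31 pairs did, and 5 of the 10 within 33 °C, so the lack of overlap does not hold with that scaling. The genes had a median level of 61.9 CPM, and protein-coding rows from 10 to 100 CPM had a median of -0.09 with 34.52% positive. Rpsa, a protein of the small subunit, had 95.9 to 127.8 CPM in the low class and 66.7 to 92.9 CPM in the high class (log2 -0.53, SE 0.12, edgeR adjusted p = 0.1425). Rpl6, of the large subunit, had 66.7 to 74.9 CPM and 52.9 to 66.2 CPM (log2 -0.29, SE 0.09).

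Nuclear genes of oxidative phosphorylation also leaned lower. Of 49 tested, 1 had a positive log2 difference, the median was -0.23 (-0.15 without 42 °C replicate 2), and 22 were nominally lower and 0 higher (edgeR 0 after adjustment, DESeq2 1 lower, limma voom 17 lower). Cox6c, a subunit of cytochrome oxidase, had 80.0, 74.9, 92.0 and 79.0 CPM in the low libraries and 56.3 to 76.9 CPM with a median of 60.3 in the high ones (log2 -0.39, SE 0.11, edgeR adjusted p = 0.1514). Uqcrfs1, the Rieske protein of complex III, did not overlap, at 92.7 to 98.8 CPM and 69.9 to 85.8 CPM (log2 -0.32, SE 0.09). Both medians stayed below 0 with library totals, at -0.11 each.

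Heat shock chaperones, which fold proteins, leaned the same way, with 6 of 32 positive and a median of -0.21 (-0.13 without 42 °C replicate 2). Protein-coding rows above 100 CPM, of any kind, had a median of -0.18 with 12.15% positive, and those from 10 to 100 CPM -0.09 with 34.52%. The chaperones thus lay near the value of abundant messengers at large, as did the cleavage and Integrator genes given below. Nominally 11 were lower and 0 higher, with 0 called by edgeR after adjustment or by DESeq2, and 7 lower and 2 higher by limma voom. Hspa4, an HSP110 protein, had 291.8 to 320.6 CPM in the low libraries and 210.1 to 273.4 CPM in the high ones (log2 -0.29, SE 0.09, edgeR adjusted p = 0.1748). Hspa9, the mitochondrial HSP70, had -0.26 (SE 0.09). Hspa1a, the inducible HSP70, had 0.231 to 1.83 CPM and 0.196 to 4.10 CPM with a log2 difference of 0.23 (SE 0.36, edgeR adjusted p = 0.7318). Genes of messenger 3′ end cleavage and the Integrator complex, which ends transcription, had a median of -0.16 (-0.08 without 42 °C replicate 2) with 8 of 34 positive, and 16 of 34 at 33 °C alone (nominally 0 higher and 3 lower, edgeR and DESeq2 0 after adjustment, limma voom 2 lower), with Ints1 at -0.31 (SE 0.12) and Ints10 at -0.26 (SE 0.11).

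Mitochondrially encoded genes, which are made in the organelle and do not pass through the nucleus, mostly had positive log2 differences, but their summed level overlapped between the classes. It was 3390, 3231, 4113 and 4204 CPM in the low libraries, 3047, 8407 and 5812 CPM in the high ones at 33 °C and 3741, 9284 and 4000 CPM in those at 42 °C. Thus 3 high libraries (33 °C replicates 3 and 4 and 42 °C replicate 4) stood above the rest, and the other 3 lay within or below the range of the low class. Of 23 tested, 22 had a positive log2 difference, with a median of 0.60, 0.91 at 33 °C and 0.34 at 42 °C, and 4 were nominally higher and 0 lower. None was called by edgeR, DESeq2 or limma voom. The gene mt-Co3, for a subunit of cytochrome oxidase, had 139.6, 116.7, 159.7 and 153.5 CPM in the low libraries and 139.1 to 344.1 CPM with a median of 213.8 in the high ones, which overlap (log2 0.69, SE 0.25). The list's median was 0.15 with limma voom. The transfer RNA genes mt-Tn, mt-Tc and mt-Ts2 had 0 counts in all libraries, and the mitochondrial ribosomal RNA mt-Rnr1 had a log2 difference of 0.40 (SE 0.38).

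Among RNAs that work without being translated, 7 rows with lower levels in the high class are described here. They were chosen for those levels after they were seen, from 20 rows of such kinds that include others below, near or above 0, and none passed edgeR with all libraries. Rn7s2, a gene of the RNA of the signal recognition particle, had 882.4, 619.7, 685.2 and 567.5 CPM in the low libraries and 86.4 to 281.5 CPM with a median of 193.8 in the high ones (log2 -1.87, SE 0.28, edgeR adjusted p = 0.07474). Rn7s1, the second gene of that RNA, had 255.1 to 426.9 CPM and 63.4 to 201.7 CPM (log2 -1.48, SE 0.29). Rn7sk, the 7SK RNA that holds the elongation factor P-TEFb, had 3596 to 5707 CPM and 779.5 to 3210 CPM (log2 -1.04, SE 0.29).

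Rpph1, the RNA of ribonuclease P, had 84.1 to 128.3 CPM in the low libraries and 21.0 to 55.5 CPM in the high ones (log2 -1.51, SE 0.23, edgeR adjusted p = 0.07757). Rmrp, the RNA of ribonuclease MRP, had 22.8 to 54.0 CPM and 5.92 to 18.5 CPM (log2 -1.61, SE 0.35). Scarna10, a guide RNA of Cajal bodies, had 11.9 to 21.6 CPM and 2.02 to 6.27 CPM (log2 -2.04, SE 0.31, edgeR adjusted p = 0.07474). The ribosomal RNA row CT010467.1, a measure of what the depletion of ribosomal RNA left, had 410.2, 2235, 1444 and 1352 CPM in the low libraries and 71.6 to 291.7 CPM with a median of 229.4 in the high ones (log2 -2.66, SE 0.43, edgeR adjusted p = 0.08066).

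None of the 7 passed edgeR with all libraries, Rn7s2 passed without 42 °C replicate 2 (edgeR adjusted p = 0.04177), and all 7 passed DESeq2 and limma voom, with DESeq2 adjusted p-values up to 0.02967 for Rn7sk. The other rows of the 20 went both ways. Scarna2 had 0.17 (SE 0.16) and the small Cajal body RNA Gm22009 had 0.90 (SE 0.28). Gm24447, a miscellaneous RNA, had -1.17 (SE 0.26) and the small Cajal body RNA Gm22442 -0.78 (SE 0.27), both with no overlap between the classes. Over all 166 tested small nuclear and nucleolar RNA rows the median was 0.33 with 105 positive, and 47 were nominally higher and 20 lower (DESeq2 6 higher and 8 lower, limma voom 13 and 12, edgeR 0). Among those with a mean of at least 1 CPM the median was -0.53. Of gene rows of any kind, 13.4% were nominally higher and 6.43% lower, DESeq2 called 3.76% and 0.727%, and limma voom 8.7% and 3.96%. The 7 rows, which include residual ribosomal RNA, were highest in the libraries of low TE share, and the part of the depletion of ribosomal RNA in any result was not tested.

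By biotype, the share of gene counts on miscellaneous RNA was 0.662%, 0.465%, 0.464% and 0.509% in the low libraries and 0.121% to 0.360% with a median of 0.276% in the high ones. The difference was -0.264 percentage points (exact two-sided permutation test over the 100 assignments within temperature, p = 0.01, the smallest it can give; adjusted p = 0.085 over 17 biotypes). The share on miRNA genes, which in these libraries includes rows overlapping the RNAs above such as Gm47305 on Rn7s2, was 0.148% to 0.161% in the low class and 0.0855% to 0.117% in the high class (exact permutation p = 0.01, adjusted p = 0.085). TEC rows held 0.181% to 0.208% in the low libraries and 0.223% to 0.405% in the high ones (exact permutation p = 0.06, adjusted p = 0.306). That difference was 0.071 percentage points, and 0.041 without 42 °C replicate 2. These 3 biotypes were the ones whose shares did not overlap, and no biotype passed after adjustment.

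Other protein-coding genes that went closely with the classes did not pass edgeR's test, and are given as the nearest to it. On the higher side, Csmd2, a membrane protein with CUB and sushi domains, had 5.62, 5.60, 5.69 and 5.85 CPM in the low libraries and 7.89 to 10.7 CPM with a median of 9.196 in the high ones (log2 0.68, SE 0.12, edgeR adjusted p = 0.1119). Golgb1, the Golgi protein giantin, had 100.6 to 114.9 CPM and 134.2 to 169.7 CPM (log2 0.47, SE 0.09), though it overlaps 2 TEC rows on its own strand that were also positive, Gm49600 at 0.55 and Gm49599 at 0.71. Tmem72, a membrane protein, had 2.46 to 3.47 CPM and 5.27 to 15.2 CPM, highest in 42 °C replicate 2 (log2 1.43, SE 0.27, and 1.17 without that library). The atypical cadherin Fat4 had 1.17 (SE 0.26), the phosphatase Ppm1f 1.00 (SE 0.23), the receptor subunit Il31ra 0.81 (SE 0.18), the Mediator subunit Med20, which shares its strand and span with Gm20517, 0.70 (SE 0.16) and the potassium channel partner Kcnip2 0.68 (SE 0.15). Pkd1l1 of the polycystin family had 0.65 (SE 0.14) and Fam227a 0.48 (SE 0.10). The edgeR adjusted p of these 10 genes was between 0.1119 and 0.1425. The genes on each side were picked for having no overlap between the classes, so their lack of overlap restates the choice.

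On the lower side, Aldh3b1, an aldehyde dehydrogenase, had 55.0, 64.0, 55.1 and 55.1 CPM in the low libraries and 29.5 to 43.2 CPM with a median of 33.5 in the high ones (log2 -0.74, SE 0.12, edgeR adjusted p = 0.08029). Lars2, the mitochondrial leucyl-tRNA synthetase, had 16.8 CPM in 33 °C replicate 2, 93.4 CPM in 33 °C replicate 5, 70.8 and 63.7 CPM in the low libraries at 42 °C, and 5.29 to 14.96 CPM in the high class (log2 -2.30, SE 0.39, edgeR adjusted p = 0.0984). The residual ribosomal RNA row CT010467.1 ran in the same order over these low libraries, at 410.2, 2235, 1444 and 1352 CPM. In the high class both rows were lowest in 33 °C replicate 1. Whether Lars2 and CT010467.1 share reads was not tested. Ccnb1ip1, a regulator of meiotic crossing over, had -1.50 (SE 0.23), but its span holds Rpph1 on the same strand with nearly the same counts, so the 2 rows cannot be told apart. The mismatch repair gene Msh6 had -0.52 (SE 0.11), the latent TGF-beta binding protein Ltbp1 -0.99 (SE 0.18), the prolyl isomerase Fkbp10 -0.83 (SE 0.15), the ADP-ribose hydrolase Macrod1 -0.87 (SE 0.16) and the phospholipase Pla2g12a -1.19 (SE 0.25). The homeobox gene Nkx6-2 had -0.55 (SE 0.11) and Aldh3b3 -0.63 (SE 0.14). The edgeR adjusted p of these 10 genes was between 0.07474 and 0.1425.

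Genes that hold transposable elements down showed no shared direction. Of 33 tested genes of the piRNA pathway, 15 had a positive log2 difference, the median was -0.07 (0.06 with library totals, -0.04 without 42 °C replicate 2), and nominally 0 were higher and 5 lower (edgeR and DESeq2 0 after adjustment, limma voom 2 lower). Piwil1 (MIWI) had 137.8 to 190.5 CPM in the low libraries and 110.2 to 238.9 CPM in the high ones (log2 0.22, SE 0.19), and Piwil2 (MILI) had 0.32 (SE 0.16). The helicase Mov10l1 had 0.31 (SE 0.19), the Tudor protein Tdrd1 0.40 (SE 0.22) and Mael -0.21 (SE 0.11). Tdrd7 had -0.24 (SE 0.10) and Ddx25, a helicase of spermatids, -0.24 (SE 0.10), and Ddx25 did not overlap between the classes (601.3 to 673.6 CPM and 409.8 to 591.1 CPM). Of 36 repressors of transposable elements that act on chromatin or RNA, 17 were positive with a median of -0.03 (0.10 with library totals), and nominally 3 were higher and 4 lower (edgeR 0 after adjustment, DESeq2 1 higher, limma voom 2 higher and 2 lower). The DNA methyltransferase Dnmt3a had 2.78 to 3.61 CPM and 3.04 to 5.62 CPM (log2 0.60, SE 0.18, edgeR adjusted p = 0.164), and the nuclease Trex1 had 1.54 (SE 0.44) at a mean of 0.107 CPM.

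Zinc finger genes named Zfp, many of which encode KRAB repressors of particular elements, had a median of 0.01 over 337 tested (0.14 with library totals), with 174 positive, 24 nominally higher and 16 lower (edgeR 0 after adjustment, DESeq2 4 and 2, limma voom 12 and 12). Zfp811 had 0.693 to 1.40 CPM in the low class and 1.86 to 3.24 CPM in the high class (log2 1.15, SE 0.22, edgeR adjusted p = 0.1286), and Zfp651 had 0.76 (SE 0.20). The RNA exosome and decay genes had a median of -0.11 with 11 of 28 positive (0.01 with library totals, -0.06 without 42 °C replicate 2), where Zfc3h1, which sends nuclear RNA to the exosome, had 0.36 (SE 0.12) and the core subunit Exosc1 -0.26 (SE 0.10). Nominally 3 of these were higher and 2 lower (edgeR and DESeq2 0 after adjustment, limma voom 2 lower). The list of replication-dependent histone genes had a median of -0.04 with 12 of 28 positive (0.08 with library totals). It held Hist1h2al, annotated as a processed pseudogene, at -0.74 (SE 0.26) and H2bc1 at 0.96 (SE 0.38). Nominally 2 histone genes were higher and 1 lower (edgeR and DESeq2 0 after adjustment, limma voom 2 lower).

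Germ cell stages gave medians that changed sign between the temperatures. Round spermatid markers had a median of -0.17 with 4 of 38 positive. Their median level was 216.9 CPM, and protein-coding rows above 100 CPM, of any kind, gave nearly the same, -0.18 with 12.15% positive. The marker median was -0.41 at 33 °C and 0.21 at 42 °C, where 28 were positive, and this difference between the temperatures was not tested for the list. Protein-coding rows above 100 CPM had -0.18 and -0.17 there. Nominally 1 was higher and 5 lower (edgeR and DESeq2 0 after adjustment, limma voom 2 and 5). Tekt1, a protein of the sperm tail, had 409.5, 453.6, 438.1 and 428.5 CPM in the low libraries and 274.9 to 403.0 CPM with a median of 340.6 in the high ones (log2 -0.33, SE 0.11). The spermatid transcription factor Tbpl1 had -0.29 (SE 0.11), and Acrv1, an acrosomal protein, -0.68 at 33 °C and 0.37 at 42 °C.

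Elongating spermatid markers, of the later stage, had a median of 0.18 with 22 of 29 positive, -0.17 at 33 °C and 0.51 at 42 °C (nominally 3 higher and 0 lower, edgeR and DESeq2 0 after adjustment, limma voom 9 higher and 1 lower). The protamine Prm1 had 285.4, 457.9, 423.9 and 482.8 CPM in the low libraries and 337.4 to 1688 CPM with a median of 547.7 in the high ones, which overlap (log2 0.91, SE 0.40, edgeR adjusted p = 0.2474). The transition protein Tnp1 had 0.49 (SE 0.36) and Fscn3, an actin bundler, 0.77 (SE 0.33). Spermatocyte markers, of the earlier meiotic stage, had a median of -0.08 with 12 of 33 positive (0.04 with library totals), with nominally 2 higher and 5 lower (after adjustment edgeR 0, DESeq2 1 higher, limma voom 1 higher and 3 lower). Among them the recombinase Dmc1 had 0.98 (SE 0.23) and the bromodomain protein Brdt -0.28 (SE 0.09), both with no overlap, and Sycp3 of the synaptonemal complex -0.06 (SE 0.22). Spermatogonia markers had a median of 0.03 with 11 of 18 positive (nominally 1 higher and 1 lower, edgeR and DESeq2 0 after adjustment, limma voom 1 and 1), with Sohlh1 at 0.94 (SE 0.32) and Dmrtb1 at -0.26 (SE 0.11).

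The summed levels of markers of cells other than germ cells were low and overlapped between the classes. Protein-coding rows of low level leaned positive whatever their kind. Under 1 CPM their median was 0.28 with 74.25% positive, and from 1 to 10 CPM it was 0.06 with 58.47%. In these bulk samples fewer cells of a type and less RNA per cell cannot be told apart. Of 13 tested Leydig cell markers, which make steroids, 12 had a positive log2 difference with a median of 0.81, and their summed level was 66.9 to 81.1 CPM (low) and 56.1 to 112.4 CPM (high). Star, which brings cholesterol into mitochondria, had 1.17, 0.887, 1.11 and 1.03 CPM in the low libraries and 1.22 to 3.20 CPM with a median of 1.43 in the high ones (log2 0.74, SE 0.29, edgeR adjusted p = 0.2121), and the luteinizing hormone receptor Lhcgr had 1.60 (SE 0.65) at 0.191 CPM. Sertoli cell markers had 14 of 18 positive, a median of 0.35 and sums of 21.9 to 33.2 CPM (low) and 22.1 to 41.5 CPM (high), with Amh at 0.69 (SE 0.32) and Inha at -0.42 (SE 0.23).

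Peritubular and stromal markers had 10 of 15 positive with a median of 0.23 and sums of 43.6 to 46.0 CPM (low) and 30.3 to 54.9 CPM (high), where Myh11 had 1.05 (SE 0.34) and Igfbp7 -0.93 (SE 0.23). Macrophage and leukocyte markers had 10 of 12 positive with a median of 0.38 and sums of 20.1 to 35.9 CPM and 21.7 to 36.9 CPM, with Fcer1g at 1.32 (SE 0.42) and Cd68 at 0.72 (SE 0.28). Endothelial markers had 7 of 10 positive with a median of 0.24 and sums of 22.5 to 34.0 CPM and 17.0 to 39.8 CPM, with Kdr at -0.80 (SE 0.27) and Tie1 at 0.70 (SE 0.31). Of 8 erythroid markers, 2 passed the filter, Slc4a1 at 1.19 (SE 0.36) and Alas2 at 0.38 (SE 0.52), with a list sum of 0.288 to 0.519 CPM and 0.474 to 1.09 CPM. Epididymal markers had 3 of 5 positive with a median of 0.07 (-0.08 without 42 °C replicate 2) and sums of 22.0 to 40.2 CPM and 19.0 to 64.3 CPM, with Cst8 at 0.28 (SE 0.28) and Defb30 at 0.18 (SE 0.29). Cst8 alone had a mean of 34.9 CPM, so the epididymal sum is largely the level of that gene, and the cells it came from were not tested. In these 7 lists edgeR called 0 of 75 tested markers, of which nominally 7 were higher and 3 lower (DESeq2 1 lower, limma voom 6 higher and 1 lower). No listed marker with a row was at 0 in all libraries, and the part of these cells in the results on other genes was not tested.

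**Figure D5:**
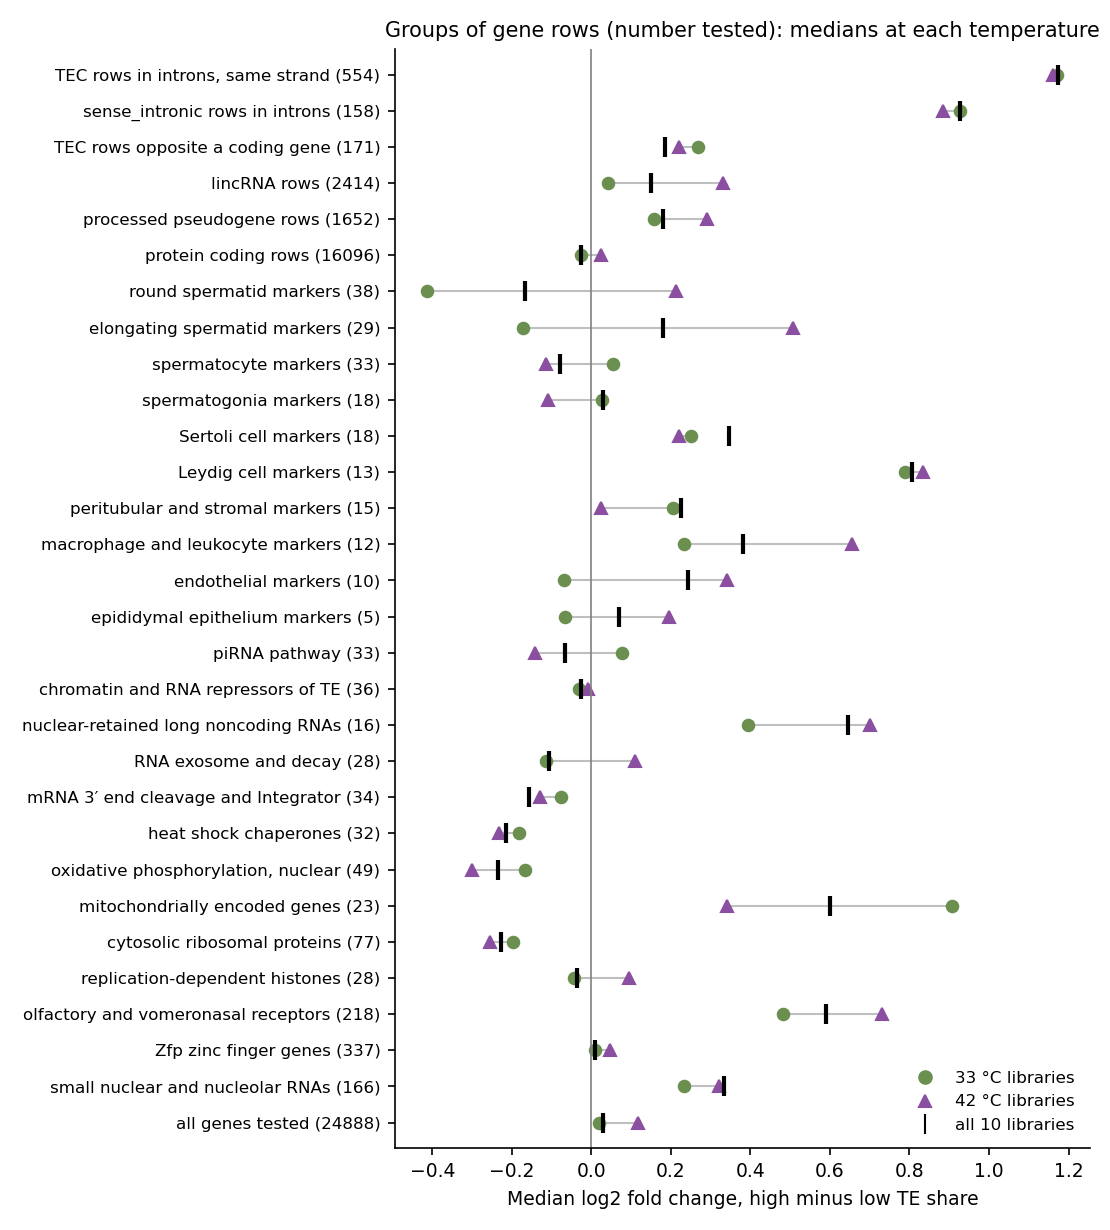
Median log2 difference between high and low TE share for groups of gene rows (number tested in brackets), at 33 °C (circles), at 42 °C (triangles) and over all 10 libraries (bars), with erythroid markers left out since 2 were tested. Intronic TEC rows lie at 1.17 and 1.16 at the temperatures, ribosomal protein and oxidative phosphorylation genes lie below 0 at each, and spermatid markers change sign.

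Since the 33 °C and 42 °C libraries came from separate mice, each temperature gave its own comparison of high with low. The low class at 42 °C was the closest pair of libraries described above, so the spread within it was small. At 33 °C edgeR called 6 genes higher (0.0241% of rows) and 8 lower (0.0321%), 14 in all (0.0563%). At 42 °C it called 8 higher (0.0321%) and 2 lower (0.00804%), 10 in all (0.0402%). Of all rows tested, 57.8% had the same sign at the temperatures. The share was 83.0% for TEC rows, 81.9% for sense_intronic rows, 84.7% for snoRNA rows and 56.2% for protein-coding rows. Where most rows are positive at each temperature, part of the shared sign follows from that alone. At 33 °C and 42 °C, 940 and 964 of 1127 TEC rows were positive, and 139 and 153 of 166 sense_intronic rows. For snoRNA rows it was 46 and 45 of 72, and for protein-coding rows 7635 and 8412 of 16096. The filter could also pass rows seen in the high libraries alone. Of 368 TEC rows that differed nominally at 33 °C, 91.6% had the same sign at 42 °C, and for 2210 protein-coding rows so chosen the figure was 46.6%. The higher calls at 33 °C numbered 118 with 42 °C replicate 2 dropped, 14 with 33 °C replicate 5 dropped, and 3 to 5 with any one other library dropped. At 42 °C they numbered 24 once 42 °C replicate 2 was dropped, 15 when either low library of 33 °C was dropped, and 0 when either low library of 42 °C was dropped.

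Some genes called at 1 temperature are given as examples, chosen after their values were seen. At 33 °C, Sphkap, an anchor of protein kinase A, had a log2 difference of 1.10 (SE 0.15, edgeR adjusted p = 0.04499), and the homeobox gene Nkx6-1 had -2.87 (SE 0.25, edgeR adjusted p = 0.001289). At 42 °C, Mdga2, a cell adhesion protein, had 2.56 (SE 0.26, edgeR adjusted p = 0.005274), and the amino acid transporter Slc7a1 had 2.96 (SE 0.40, edgeR adjusted p = 0.0412). The test of the difference between the temperatures called 8 genes as more positive at 42 °C (0.0321%) and 1 as less (0.00402%), 9 in all (0.0362%), the less positive one being Rpsa-ps10, a pseudogene of Rpsa (interaction -3.48, SE 0.42, edgeR adjusted p = 0.02103). Mdga2 was among the 8 (interaction 2.60, SE 0.34, edgeR adjusted p = 0.03386), and the 8 numbered 18 with 42 °C replicate 2 dropped, 17 with 33 °C replicate 5 dropped and 0 with either low library of 42 °C dropped.

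The class term was also held in the comparison of 42 °C with 33 °C. With class as a covariate edgeR called 57 genes higher at 42 °C (0.229%) and 2 lower (0.00804%), 59 in all (0.237%). Without it, 20 were higher and 1 lower, and all 21 of these were among the 59. Hspa1a, the inducible HSP70 gene, had a log2 difference of 2.95 (SE 0.36, edgeR adjusted p = 0.009515) with the class and 2.98 (SE 0.36, edgeR adjusted p = 0.01157) without it. Of the 38 added genes the most abundant, chosen for that after its value was seen, was Snrnp27, a splicing protein, with -0.88 (SE 0.11, edgeR adjusted p = 0.01201 with the class and 0.08703 without). The count of 57 became 1779 (186 lower) with 33 °C replicate 5 dropped. Dropping 33 °C replicate 3 or 42 °C replicate 5 left 38 or 60, and each of the other 7 libraries 12 to 29. With a mean of at least 1 CPM 4 genes were higher and 1 lower.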

How the data were processed

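Values were taken from 1 count table, whose raw whole numbers the authors deposited without normalization (a reading of the table itself), for 55401 gene rows and 1146 TE rows in 10 libraries of 60623568 to 117723075 counts. Per the submitters' processing notes, DRAGEN, cutadapt and Trim Galore were used, with mm10 and GRCm38 as builds. How reads were counted (the tool, the strand setting, the sharing of multiply aligned reads) is not given in the sources used here, and a read shared by a TE copy and a gene could be counted on either. Positions, strands and biotypes were those of the deposited table. Exons and lengths came from GENCODE M21, which held 55141 of the gene IDs, 99.4197% of them at the same position.

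High and low TE share were compared with edgeR 4.0.16 (quasi-likelihood, TMM over gene rows, temperature as covariate, Benjamini-Hochberg over all rows tested) in R 4.3.3. The filter kept rows with enough counts (minimum count 10, minimum total 15) in at least 5 libraries. The class was nested in temperature for each temperature alone and for the difference between them. Alternatives were DESeq2 1.42.0, limma 3.58.1 (voom with quality weights), other scalings and filters, the TE to gene ratio as a continuous term, libraries within 0.5 points of the 7% threshold left out (42 °C replicates 4 and 5), 42 °C replicates 1 and 3 summed, a replicate block and each library dropped. Thinning to equal depth, the summed levels of intronic rows, and levels with no filter were added after seeing the data. Shares by biotype were tested by exact permutation with SciPy 1.17.1. On simulated counts for 24888 genes in these libraries, edgeR recovered 73 of 100 genes changed with a fold of 2 and 100 of 100 with a fold of 4, with 4 false calls. The changed genes were drawn from rows averaging 1 CPM or more, and each gene was simulated independently. The recovery therefore does not carry over to rows below 1 CPM or to shifts shared by many rows.

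The classes, the 24 gene lists and the comparisons were chosen with earlier results of these data known. The rule for named genes took, in each direction, the 10 protein-coding genes of smallest p that averaged 5 CPM or more and had a gene name other than a clone or model number, with no overlap between the classes with temperature removed. It also took up to 3 noncoding genes that pass (Vcp-rs alone did), 12 germ cell and heat genes, and the 2 genes of smallest p in each list. The listed symbols Spert, Ahsp, Ddx39a, Gasz, Norad and Symplk matched no row. Small RNAs and single TE copies were not analysed here.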

Additional observations from a re-analysis of the deposited data

Results flagged for a closer look

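In groups of 5 libraries at 1 temperature, 82 sets of values were checked for a library far from the others, and 10 sets had one, where chance gives about 1 in 20. Of the 10, 5 belonged to 42 °C replicate 2. It had the highest TE share at 42 °C (16.17%), the lowest total (60623568 counts), the highest share of gene counts on TEC rows (0.4045%) and on transcribed unprocessed pseudogenes (0.1496%), and the highest level of Tmem72 (15.18 CPM). The high and low classes kept 2 called genes, Vcp-rs and Npr2, when it was dropped.

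At 33 °C, replicate 2 had the highest total (117723075 counts) and the highest share on small nuclear RNA genes (0.00671%). Replicate 5 had the highest level of Lars2 (93.36 CPM) and of Ltbp1 (12.46 CPM). At 42 °C, replicate 5 had the most genes with 10 or more counts (2.566e+04).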

How the results depend on the processing

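Vcp-rs was called in each of 24 alternatives and Npr2 in 21, and neither turned its direction, while list medians near 0 changed sign with the scaling. Genes called higher in the high class, 0 in the fit reported, were 1 with DESeq2 size factors, 1 with TMM over genes and TE, 44 with no filter, 1 at a mean of at least 1 CPM, 2796 with the TE to gene ratio as a continuous term (421 without 42 °C replicate 2), 1439 with libraries near the threshold left out (replicate 2 was then the only high library at 42 °C), 936 with DESeq2 and 2166 with limma voom. Genes called lower, 2 as reported, were 46 with no filter, 1784 with the continuous ratio (44 without 42 °C replicate 2), 163 with libraries near the threshold left out, 181 with DESeq2 and 985 with limma voom. For 42 °C against 33 °C, 57 higher and 2 lower became 31 higher with library totals, 216 and 25 with no filter, 4 and 1 at 1 CPM, and 20 and 1 with no class term. At 33 °C alone, 6 higher became 62 with no filter, and 8 lower became 258 with no filter, 3 with library totals and 5 at 1 CPM. At 42 °C alone, 8 higher became 75 and 2 lower 46 with no filter, and 1 was lower with library totals. The difference between the temperatures gave 40 and 6 with no filter. The cause of these changes was not tested.

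Dropping 1 library gave 0 to 10 higher and 2 to 13 lower for the class, 3 to 118 and 3 to 20 at 33 °C, 0 to 24 and 1 to 8 at 42 °C, 0 to 18 and 0 to 4 for their difference, and 12 to 1779 and 0 to 186 for temperature. For the class, the most higher calls came without 33 °C replicate 5 (10) and the most lower calls without 42 °C replicate 4 (13) and 33 °C replicate 2 (9). Without 33 °C replicate 5, 1779 genes were higher and 186 lower for temperature, and without 42 °C replicate 2, 118 were higher and 20 lower for the class at 33 °C. Where this left 1 low library at a temperature, that library is assumed to vary like the others. No biotype share passed here or in the fit reported. With 17 biotypes and a smallest p of 0.01 in the exact permutation test, passing needs several biotypes at that floor. Dropping a library leaves fewer assignments and raises the floor. The unchanged calls therefore say little about stability. Replicate numbers did not pair the libraries (correlation of same-numbered deviations -0.716 to -0.117), and with the replicate block 1 gene was lower for the class (Npr2 had an edgeR adjusted p of 0.08632) and 6 were higher and 0 lower for temperature. The classes rest on 4 and 6 libraries and differ in depth, so within a single library a gene near 1 CPM or below rests on fewer counts in the high class.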
